A study of Bos taurus with 16 samples.

Results

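The unfolded protein response and endoplasmic reticulum (ER) folding genes examined here were 36 named genes for chaperones, folding enzymes, stress sensors, transcription factors, degradation factors and export factors. They were measured in liver of 8 finishing and 8 growing Angus steers. A gene was kept when a probe set on the array carried its symbol and no other, and the probe set with the highest mean over the 16 arrays stood for it. By this rule 35 of the 36 genes had a value, out of 18010 genes measured, and each of the 35 had exactly 1 such probe set. PDIA6, a disulfide isomerase, lay only on a probe set shared with LOC511898 and was given no value.

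The 16 animals were weaned Angus steers, which are castrated males, and began at 209 ± 29.4 kg body weight. They were allotted at random to the 2 phases, and each was fed on its own a diet based on cotton seed hulls so that body weight rose by a steady 1.5 kg per day. Finishing steers reached 576 kg and growing steers 301 kg. Body weight and time on feed, and with them age, differed together between the groups and cannot be told apart. The samples were whole liver, in which fewer cells of a type and less RNA per cell cannot be told apart. Values are the deposited log2 signals, differences are finishing minus growing on that scale, and p-values come from limma over all 26773 probe sets with Benjamini-Hochberg adjustment and a threshold of 0.05.

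Proteins that enter the ER are folded by chaperones and oxidised by disulfide isomerases, and those that fail to fold are drawn back to the cytosol and degraded. When unfolded protein accumulates, the membrane sensors IRE1, PERK and ATF6 signal to the nucleus and the cell makes more folding and degradation machinery, the unfolded protein response. Hepatocytes export most plasma proteins and also use branches of this response in lipid and glucose metabolism.

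The arrays shared a common scale, with medians between 5.57 and 5.64, and no 2 arrays were the same. Finishing steers 5 and 6 correlated least with the other steers of their group, with median Pearson correlations over all probe sets of 0.978 and 0.981, while the finishing maximum was 0.986 and growing steers lay between 0.984 and 0.989. Hepatocyte markers were bright in every liver: the mean level of the 13 measured was 11.989 to 12.194 in finishing steers and 12.003 to 12.172 in growing steers. In limma 0 of 13 passed, against 8.36% of all genes. An unadjusted p below 0.05 was found for 3 of 13, against 24.7% of all genes. In the rank-sum test 2 were past the threshold, and no share of all genes stands beside that count.

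HERPUD1, an ER membrane protein that gathers degradation factors around the retrotranslocation channel, was the only 1 of the 35 genes past the threshold, and it was higher in finishing livers. The share called was 2.86% of the 35 genes, against 8.36% of all 18010 genes (2.7% higher and 5.66% lower in finishing) and 6.64% of all probe sets. At an unadjusted p below 0.05 the count was 13 of 35, against 24.7% of all genes, of which 12 had a difference above 0 (34.3%, against 10.9% of all genes) and 1, ATF6, a difference below 0 (against 13.8% of all genes). The difference was above 0 for 29 genes and below 0 for 6, or 17.1%, whereas 46.9% of all genes had a difference below 0. The median difference was 0.21 over the 35 genes and 0.012 over all genes. No gene among the 35 had groups that did not overlap, which 1.21% of all genes had.

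**Figure D1:**
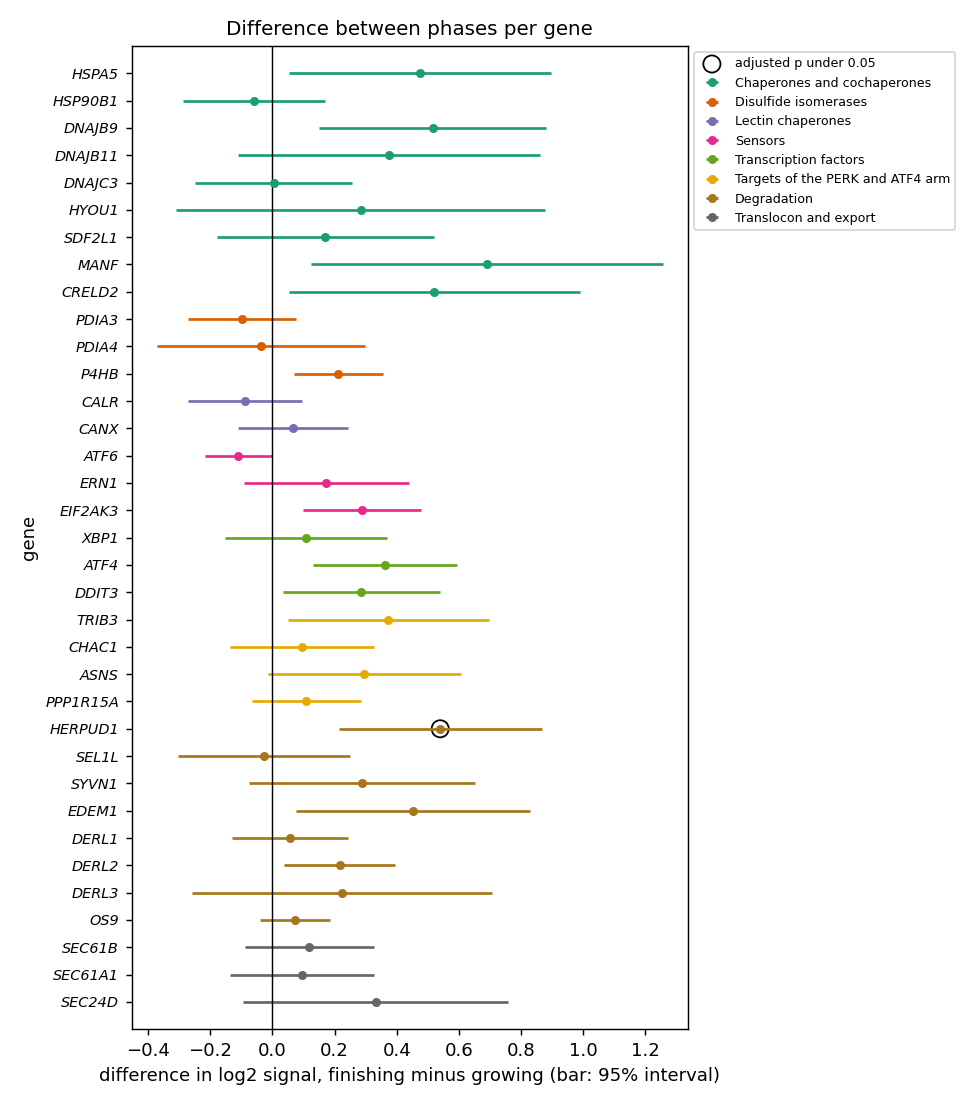
Difference in log2 signal, finishing minus growing, for each of the 35 genes grouped by role, with bars for the 95% confidence interval from limma. Points right of 0 have the higher mean in finishing steers; 29 of the 35 lie there, and HERPUD1 is the gene whose adjusted p was below 0.05.

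The 9 chaperones and cochaperones had a median difference of 0.38. In limma 0 of 9 passed the threshold and 4 had an unadjusted p below 0.05, and 0 passed in a rank-sum test. For these counts and those of the roles below, the shares of all genes in limma were 8.36% and 24.7%. HSPA5 encodes BiP, the main ER chaperone, which also holds the sensors inactive. Finishing steers spanned 11.34 to 12.87 for HSPA5 around a median of 12.05, and growing steers 11.18 to 12.36 around a median of 11.47. Finishing steer 5 was the highest of all and finishing steer 4 lay among the lower growing steers, so the ranges overlapped widely. The difference in HSPA5 was 0.48 ± 0.20 (SE, adjusted p = 0.173). DNAJB9 is a cochaperone that keeps BiP on IRE1. For DNAJB9 the lowest, median and highest log2 signals were 9.33, 10.03 and 10.65 in finishing steers and 9.13, 9.40 and 10.29 in growing steers. Growing steer 3 stood above the other growing steers and above every finishing steer but steer 5. The difference in DNAJB9 was 0.52 ± 0.17 (SE, adjusted p = 0.085).

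MANF, a secreted ER stress factor that binds BiP, showed the largest difference among the 35 genes. MANF lay between 8.25 and 10.26 in finishing steers (median 9.06) and between 8.05 and 9.61 in growing steers (median 8.18). Growing steers 3 and 4 lay well above the other growing steers, and finishing steer 4 lay close to the growing median. The MANF difference was 0.69 ± 0.27 (SE, adjusted p = 0.14), with a 95% confidence interval of 0.12 to 1.26. CRELD2, a secreted disulfide isomerase-like protein, had a difference of 0.52 ± 0.22 (SE, adjusted p = 0.18). In finishing livers CRELD2 ranged over 7.31 to 9.14, median 8.15, and in growing livers over 7.14 to 8.36, median 7.49. HYOU1, a nucleotide exchange factor for BiP, had the widest spread between finishing steers. The log2 signal of HYOU1 ran from 8.87 to 11.25 in finishing steers, with a median of 10.04, against 9.07 to 10.39 in growing steers, with a median of 9.58. The highest and lowest steers, finishing 5 and 4, were 5.21-fold apart, and the extremes of the growing group 2.5-fold. The difference in HYOU1 between groups was 0.28 ± 0.28 (SE, adjusted p = 0.61), and it ran from 0.093 without finishing steer 5 to 0.43 without finishing steer 4.

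DNAJB11, a cochaperone that brings clients to BiP, had a difference of 0.38 ± 0.23 (SE, adjusted p = 0.372). Finishing steers spanned 8.16 to 10.12 for DNAJB11 around a median of 9.10, and growing steers 8.38 to 9.65 around a median of 8.59. SDF2L1, which works with DNAJB11, had a difference of 0.17 ± 0.17 (SE, adjusted p = 0.603). DNAJC3, known as p58IPK and able to inhibit PERK, had a difference near 0, 0.0042 ± 0.12 (SE, adjusted p = 0.99). HSP90B1 encodes GRP94, the HSP90 of the ER. For HSP90B1 the lowest, median and highest log2 signals were 11.83, 12.19 and 12.68 in finishing steers and 11.96, 12.29 and 12.53 in growing steers. Its difference was -0.060 ± 0.11 (SE, adjusted p = 0.806), and the finishing range enclosed the growing range.

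The 3 measured disulfide isomerases had a median difference of -0.036. In limma 0 of 3 passed the threshold, 1 had an unadjusted p below 0.05, and this gene, P4HB, passed in the rank-sum test. P4HB is the classical disulfide isomerase, PDIA1. P4HB lay between 11.78 and 12.20 in finishing steers (median 11.84) and between 11.50 and 11.83 in growing steers (median 11.65). The values of 5 of the 8 finishing steers exceeded every growing steer, and finishing steer 3 stood apart at the top. The P4HB difference was 0.21 ± 0.069 (SE, adjusted p = 0.0732). PDIA3, which acts on glycoproteins held by the lectins, had a difference of -0.098 ± 0.082 (SE, adjusted p = 0.537), and PDIA4, a partner of BiP, one of -0.036 ± 0.16 (SE, adjusted p = 0.927). The lectins CALR and CANX, calreticulin and calnexin, hold glycoproteins until they fold. Their differences were -0.089 ± 0.087 (SE, adjusted p = 0.602) and 0.067 ± 0.084 (SE, adjusted p = 0.702).

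Of the 3 sensors 0 passed in limma or in the rank-sum test, and 2 had an unadjusted p below 0.05 in limma. EIF2AK3 encodes PERK, the kinase that slows translation by phosphorylating eIF2alpha. In finishing livers EIF2AK3 ranged over 7.62 to 8.03, median 7.79, and in growing livers over 7.37 to 7.99, median 7.45. Growing steers 3 and 4 reached into the finishing range, and the other growing steers lay below every finishing steer. The EIF2AK3 difference was 0.29 ± 0.090 (SE, adjusted p = 0.0631). ATF6, the sensor that is cut to release a transcription factor, was read on a probe set of its own. The log2 signal of ATF6 ran from 9.50 to 9.73 in finishing steers, with a median of 9.64, against 9.64 to 9.82 in growing steers, with a median of 9.73. The 4 lowest finishing steers were below every growing steer, and the difference was -0.11 ± 0.052 (SE, adjusted p = 0.23). A further probe set, which carries the symbols of both ATF6 and CYP39A1 and is outside the rule, went the other way. It averaged 8.37 ± 0.25 in finishing and 7.78 ± 0.31 in growing steers (SD, n = 8 each), a difference of 0.59 ± 0.13 (SE, adjusted p = 0.0141). On it 6 of 8 finishing steers exceeded every growing steer, and the signals of the 2 genes cannot be told apart there. ERN1, which encodes IRE1, the sensor that splices XBP1 messenger RNA, had a difference of 0.17 ± 0.13 (SE, adjusted p = 0.462).

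The 3 transcription factors had a median difference of 0.29. In limma 0 of 3 passed and 2 had an unadjusted p below 0.05, and 0 passed in the rank-sum test. ATF4 is the factor whose translation increases when eIF2alpha is phosphorylated. Finishing steers spanned 10.72 to 11.10 for ATF4 around a median of 10.77, and growing steers 10.21 to 10.97 around a median of 10.47. The upper 3 finishing steers exceeded every growing steer, and growing steer 3 was higher than the rest of the finishing steers. The ATF4 difference was 0.36 ± 0.11 (SE, adjusted p = 0.056), with a 95% confidence interval of 0.13 to 0.59. DDIT3 encodes CHOP, a target of ATF4 linked to cell death in prolonged stress. For DDIT3 the lowest, median and highest log2 signals were 6.64, 7.13 and 7.68 in finishing steers and 6.63, 6.84 and 6.99981 in growing steers. In 6 of the 8 finishing steers DDIT3 exceeded every growing steer, while finishing steers 1 and 4 lay in the lower part of the growing range. The DDIT3 difference was 0.29 ± 0.12 (SE, adjusted p = 0.169). XBP1, the factor activated by IRE1 splicing, had a difference of 0.11 ± 0.12 (SE, adjusted p = 0.673). XBP1 lay between 11.37 and 12.02 in finishing steers (median 11.79) and between 11.37 and 12.11 in growing steers (median 11.52). No separate signal for spliced XBP1 was used.

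The 4 targets of the PERK and ATF4 branch had a median difference of 0.20. In limma 0 of 4 passed and 1 had an unadjusted p below 0.05, and 0 passed in the rank-sum test. TRIB3, a pseudokinase induced by ATF4 and CHOP, differed between steers within the finishing group. In finishing livers TRIB3 ranged over 5.12 to 6.28, median 5.86, and in growing livers over 5.11 to 5.60, median 5.41. Finishing steers 4 to 8 exceeded every growing steer, and finishing steers 1 and 3 were at the bottom of the growing range. The TRIB3 difference was 0.37 ± 0.15 (SE, adjusted p = 0.162). ASNS, asparagine synthetase, had a difference of 0.30 ± 0.15 (SE, adjusted p = 0.258), with its highest values of 7.58 and 7.56 in finishing steers 8 and 1. CHAC1, which degrades glutathione, differed by 0.096 ± 0.11 (SE, adjusted p = 0.671). PPP1R15A encodes GADD34, which guides the removal of phosphate from eIF2alpha, and differed by 0.11 ± 0.083 (SE, adjusted p = 0.487). TRIB3 and CHAC1 had means over the 16 arrays below the median probe set mean of 5.60, and no detection calls were used.

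Among the 8 degradation factors the median difference was 0.22. In limma HERPUD1 alone passed and 3 had an unadjusted p below 0.05, while in the rank-sum test 0 of 8 passed and the adjusted p of HERPUD1 was 0.0665. The log2 signal of HERPUD1 ran from 9.11 to 10.26 in finishing steers, with a median of 9.53, against 8.71 to 9.62 in growing steers, with a median of 8.94. The upper 4 finishing steers exceeded every growing steer, and without growing steer 3 the highest growing value was 9.16. HERPUD1 averaged 9.55 ± 0.38 in finishing and 9.01 ± 0.28 in growing steers (SD, n = 8 each), a difference of 0.54 ± 0.16 (SE, adjusted p = 0.0458) or 1.45-fold, with a 95% confidence interval of 0.21 to 0.87. The call changed when single animals were left out, in fits that also had 1 steer fewer. It was kept in 4 of these 16 fits, those without finishing steer 1, 3 or 4 or without growing steer 3. It was lost in the other 12, and over all 16 fits the adjusted p lay between 0.0163 and 0.087.

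EDEM1 takes misfolded glycoproteins to degradation. Finishing steers spanned 8.68 to 10.33 for EDEM1 around a median of 9.13, and growing steers 8.49 to 9.07 around a median of 8.83. Finishing steer 5 was far above the rest, and the lower finishing steers lay inside the growing range. The EDEM1 difference was 0.45 ± 0.18 (SE, adjusted p = 0.144). SYVN1 encodes HRD1, the ubiquitin ligase of the channel, and differed by 0.29 ± 0.17 (SE, adjusted p = 0.359). For SYVN1 the lowest, median and highest log2 signals were 9.79, 10.50 and 11.12 in finishing steers and 9.83, 10.04 and 10.89 in growing steers. The highest SYVN1 value of all 16 steers was that of finishing steer 5, with growing steer 3 next. SEL1L, its adaptor, had a difference of -0.027 ± 0.13 (SE, adjusted p = 0.934), with an SD of 0.369 in finishing and 0.144 in growing steers. DERL1, DERL2 and DERL3 belong to the derlin family of channel proteins. DERL1 differed by 0.055 ± 0.088 (SE, adjusted p = 0.774), DERL2 by 0.22 ± 0.085 (SE, adjusted p = 0.145) and DERL3 by 0.22 ± 0.23 (SE, adjusted p = 0.626). OS9, a lectin that recognises trimmed glycans on misfolded proteins, varied least of the 35 genes among finishing steers. OS9 lay between 10.11 and 10.27 in finishing steers (median 10.20) and between 10.02 and 10.33 in growing steers (median 10.12). Its highest and lowest steers were 1.12-fold apart in the finishing group and 1.24-fold apart in the growing group, and its difference was 0.073 ± 0.054 (SE, adjusted p = 0.467).

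Of the 3 translocon and export genes 0 passed in limma or in the rank-sum test, and 0 had an unadjusted p below 0.05. SEC61A1 and SEC61B, subunits of the channel through which proteins enter the ER, differed by 0.094 ± 0.11 (SE, adjusted p = 0.679) and 0.12 ± 0.098 (SE, adjusted p = 0.524). SEC24D, a coat protein that picks cargo for vesicles leaving the ER, differed by 0.33 ± 0.20 (SE, adjusted p = 0.368). In finishing livers SEC24D ranged over 8.57 to 9.99, median 9.64, and in growing livers over 8.84 to 9.90, median 9.06. Finishing steer 4 was the lowest of all 16 for SEC24D, and growing steer 3 was higher than most finishing steers.

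**Figure D2:**
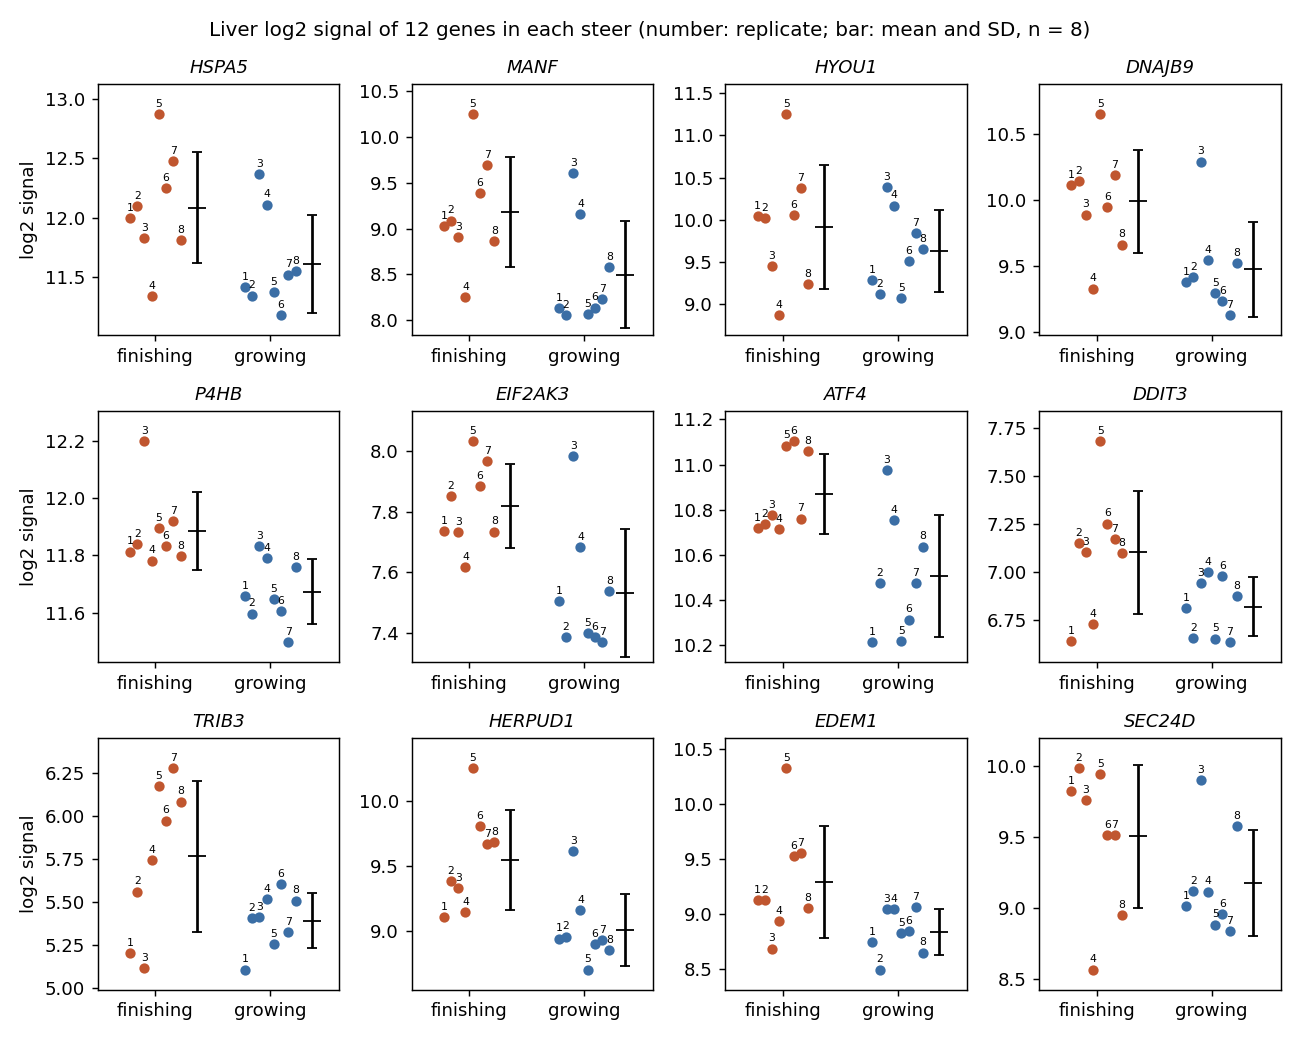
Log2 signal of selected genes in each steer, finishing steers left of growing steers, with 1 point per steer and the group mean and SD marked. The groups overlap in every gene shown, and HERPUD1 runs from 9.11 to 10.26 in finishing steers and from 8.71 to 9.62 in growing steers.

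The steers of each group differed in their level of many of these genes. Each steer's deviation from its own group mean was taken for each gene, and the median over the 35 genes was 0.44 in finishing steer 5 and -0.35 in finishing steer 4. Finishing steer 5 was the highest of its group in 23 of 35 genes, as it was for 16.1% of all genes. Finishing steer 4 was the lowest in 21 of 35 genes, as it was for 12% of all genes. Among growing steers the median deviation was highest in steer 3, at 0.26, and next in steer 4, at 0.22. Growing steer 3 was the highest of its group in 20 of 35 genes and for 14.4% of all genes, and growing steer 4 in 9 of 35 genes and for 15.9% of all genes. Most other steers also lay to 1 side of their group mean. Finishing steer 4 and growing steer 5 were each below it in 32 of 35 genes, growing steers 1 and 2 in 30 and finishing steer 8 in 29. Finishing steer 7 was above it in 28 of 35. The median deviation was -0.20 in finishing steer 8, -0.18 in growing steer 5 and 0.12 in finishing steer 7. The median deviation over all genes stayed between -0.025 and 0.016 in every steer. Growing steer 3 was also the highest of its group in 22 of 33 genes of the translocon, signal peptidase and N-glycosylation list described below, with a median deviation of 0.23, in 15 of 34 genes of the vesicle coat list and in 14 of 30 of the glycan trimming and degradation list. Finishing steer 4 was the lowest in 19 of 34 genes of the vesicle coat list and in 11 of 30 of the glycan trimming list. Finishing steer 5 was the highest in 10 of 30 genes of the glycan trimming list, 8 of 33 of the translocon list and 5 of 34 of the vesicle coat list. In the ER lumenal folding list growing steer 3 was highest in 13 of 28 genes, finishing steer 5 highest in 7 and finishing steer 4 lowest in 10. In the further sensors list growing steer 3 was highest in 5 of 27 and lowest in 5. For the further ATF4 targets it was highest in 2 of 27 and lowest in 4. In these 2 lists finishing steer 5 was highest in 10 and 7, and finishing steer 4 lowest in 5 and 2.

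**Figure D3:**
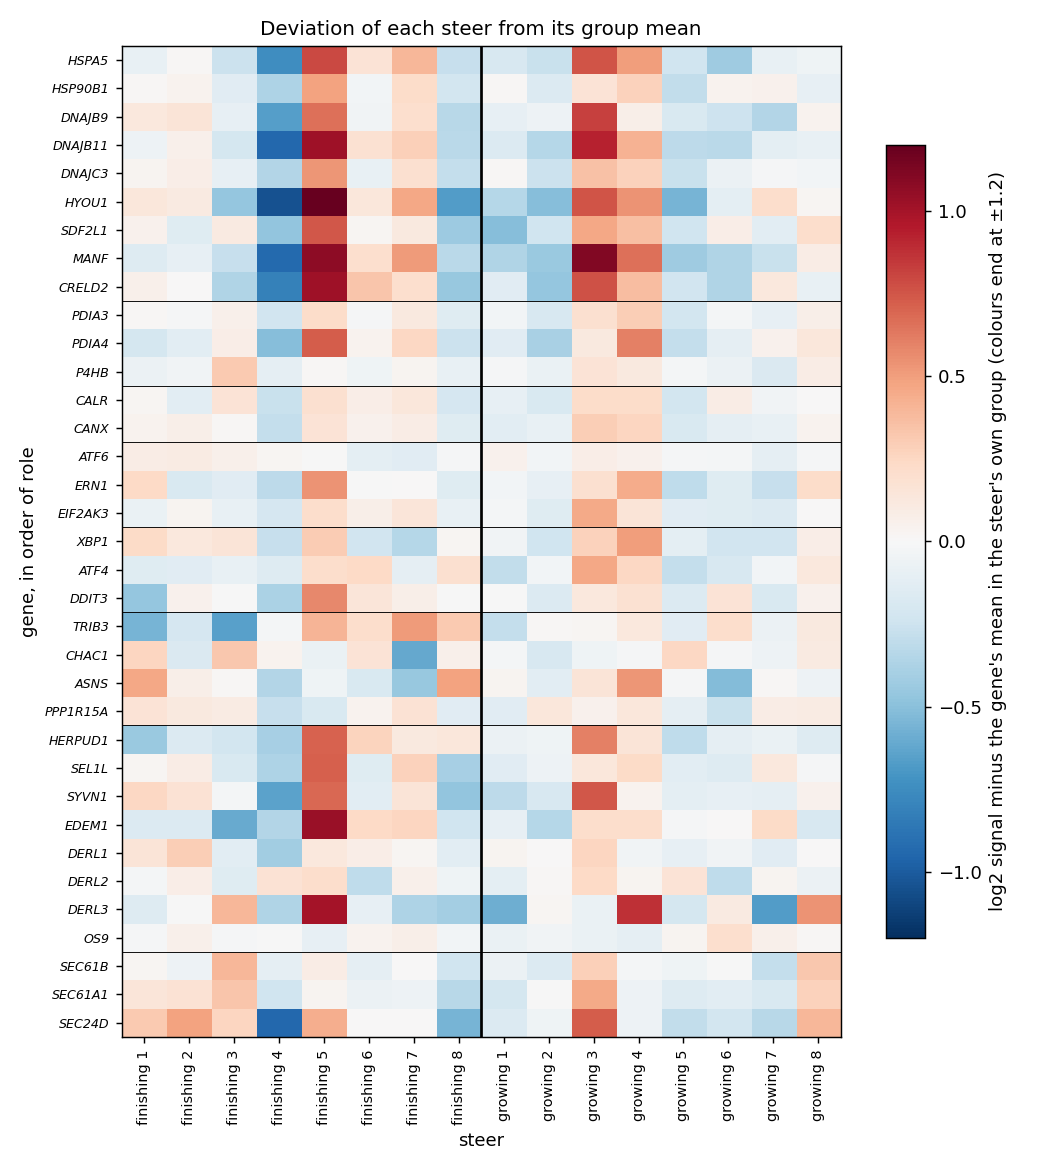
Colour map of the deviation of each gene (down the page, by role) from its own group mean in each steer (across, finishing left of growing), in log2 units, with colours that end at ±1.2. Red is above and blue below the group mean. The columns of finishing steers 5 and 7 and growing steers 3 and 4 are mostly red. Those of finishing steers 4 and 8 and growing steers 1, 2, 5 and 6 are mostly blue. The largest median deviations are those of finishing steers 5 and 4.

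In the colour map of deviations the chaperones fill the top block, where finishing steers 5 and 4 and growing steer 3 were most often the extremes of their group. Finishing steer 5 was highest and finishing steer 4 lowest of their group in all 9 chaperones and cochaperones, with median deviations of 0.79 and -0.74. Growing steer 3 was highest in 8 of the 9, with a median deviation of 0.76, and growing steer 4 was highest in the remaining 1, HSP90B1. For the 4 targets of PERK and ATF4 the median deviation was -0.065 in finishing steer 5, which was highest in 0 of 4, and 0.035 in growing steer 3. For the 3 translocon and export genes the median deviation was highest in finishing steer 3, at 0.34, and in growing steer 3, at 0.45.

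The median difference of the set depended on finishing steer 5. Without finishing steer 5 the median difference over the 35 genes was 0.107, against 0.212 with all 16 steers and 0.235 without growing steer 3, and no other single steer moved it below 0.107 or above 0.235. Among the genes with a smaller difference without finishing steer 5 were SDF2L1 (0.064), DERL3 (0.080), ERN1 (0.097), SYVN1 (0.19) and DNAJB11 (0.23). Not every gene fell in this way. Without that steer P4HB stayed at 0.21, ATF4 was at 0.33 and EIF2AK3 at 0.26. The difference was larger than with all 16 steers for ASNS (0.304), PPP1R15A (0.135), CHAC1 (0.107) and OS9 (0.087).

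The plot of SDs sets the spread of each gene in the growing group against that in the finishing group. The median SD over the 35 genes was 0.297 in finishing and 0.221 in growing steers, against 0.179 in finishing and 0.158 in growing steers for the 10166 genes whose mean lay above the median probe set mean of 5.60. An SD above 0.4 was found in 10 of 35 genes (28.6%) among finishing steers and in 6 of 35 (17.1%) among growing steers. The corresponding shares of the 10166 brighter genes were 7.37% among finishing and 4.63% among growing steers. The finishing SD exceeded the growing SD in 26 of 35 genes, or 74.3%, as it did in 61.1% of all genes.

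After HYOU1, the widest ranges among finishing steers were also those of chaperones and cochaperones. The highest and lowest steers were 4.02-fold apart for MANF in the finishing group and 2.93-fold in the growing group. For DNAJB11 they were 3.9-fold apart in the finishing group and 2.41-fold in the growing group, and for CRELD2 3.55-fold in the finishing group and 2.33-fold in the growing group. EDEM1 spread over 3.13-fold in finishing steers and 1.49-fold in growing steers. HSPA5 spread over 2.89-fold in finishing steers and 2.27-fold in growing steers.

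**Figure D4:**
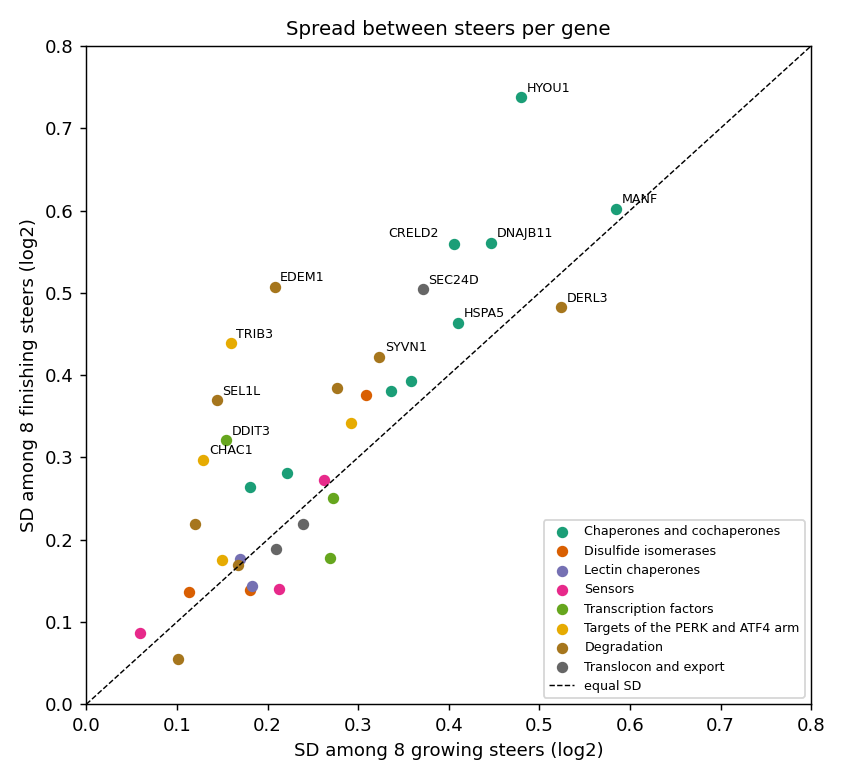
Standard deviation between steers of each of the 35 genes in log2 units, with the growing SD on the horizontal axis, the finishing SD on the vertical axis and the line of equality drawn. Genes above the line, 26 of 35, varied more among finishing steers, and HYOU1 has the largest finishing SD.

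Other genes of the ER, of secretion and of the stress and amino acid responses, in 6 lists that did not include the 35, were read in the same fit. Of 179 measured, 12 were higher and 5 lower in finishing, and the share of each list past the threshold stands below, against 8.36% of all genes. The median differences of the lists ran from 0.014 to 0.13, against 0.012 for all genes. ER lumenal folding and oxidation genes had 2 higher and 1 lower of 28 measured (10.7%). ERO1B, an oxidase that recharges disulfide isomerases, rose by 1.17 ± 0.20 (SE, adjusted p = 0.0032) or 2.24-fold. The log2 signal of ERO1B ran from 9.31 to 10.57 in finishing steers, with a median of 10.08, against 8.27 to 9.26 in growing steers, with a median of 8.97. Every finishing steer exceeded every growing steer in ERO1B, and the call was kept in all 16 fits that left out 1 steer. TXNDC5, a disulfide isomerase, rose by 0.26 ± 0.068 (SE, adjusted p = 0.0285), and PPIC, a peptidyl-prolyl isomerase, was lower with a difference of -0.23 ± 0.067 (SE, adjusted p = 0.0473). TXNDC5 lost the call without finishing steer 2 or growing steer 2, 7 or 8, with adjusted p up to 0.0602. PPIC lost it in 13 of the 16 fits, all but those without finishing steer 4 or growing steer 2 or 3, with adjusted p up to 0.0825.

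Glycan trimming and degradation genes had 4 higher and 0 lower of 30 measured (13.3%) in limma, and 2 passed in the rank-sum test, ERLIN1 and EDEM3. SELENOS, a selenoprotein of the retrotranslocation complex, rose by 0.68 ± 0.16 (SE, adjusted p = 0.0183). Its adjusted p was 0.0827 in the rank-sum test and 0.0628 without finishing steers 5 and 6, and the call was kept in all 16 fits that left out 1 steer. Finishing steers spanned 8.51 to 9.70 for SELENOS around a median of 8.98, and growing steers 8.06 to 9.03 around a median of 8.21. Growing steer 3 was the highest of its group, and finishing steers 5 and 4 were again the highest and the lowest of theirs. EDEM3, a relative of EDEM1, rose by 0.53 ± 0.13 (SE, adjusted p = 0.025), ERLIN1, a scaffold for degradation of membrane proteins, by 0.37 ± 0.080 (SE, adjusted p = 0.0111), and UBE2J2, an ER ubiquitin-conjugating enzyme, by 0.32 ± 0.095 (SE, adjusted p = 0.0493). EDEM3 lost the call without finishing steer 6 or growing steer 6, with adjusted p up to 0.0505. Without both finishing steers 5 and 6 EDEM3 also lost the call (adjusted p = 0.0775). UBE2J2 lost it in 12 of the 16 fits, all but those without finishing steer 3 or 4 or growing steer 3 or 4, with adjusted p up to 0.0948.

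Genes of the vesicle coat and of cargo transport to the Golgi had 4 higher and 1 lower of 34 measured (14.7%). SEC24A, a relative of SEC24D, rose by 0.56 ± 0.086 (SE, adjusted p = 0.00205), SEC16A, which organises ER exit sites, by 0.48 ± 0.10 (SE, adjusted p = 0.0131), GOLGA3, a Golgi matrix protein, by 0.38 ± 0.094 (SE, adjusted p = 0.0215) and COPB1, a coat subunit of retrograde vesicles, by 0.32 ± 0.083 (SE, adjusted p = 0.0285). SEC24B, the closest relative of SEC24A, was lower, with a difference of -0.29 ± 0.077 (SE, adjusted p = 0.0323). SEC24B lost the call without finishing steer 5, 6, 7 or 8 or growing steer 1, 2, 7 or 8, with adjusted p up to 0.0667. COPB1 lost it without finishing steer 2, 5 or 6 or growing steer 2, 5 or 7, with adjusted p up to 0.0595. SEC24A, SEC16A and GOLGA3 kept it in all 16 fits, but GOLGA3 lost it without both finishing steers 5 and 6 (adjusted p = 0.0639). The translocon, signal peptidase and N-glycosylation genes had 0 of 33 past the threshold in limma and in the rank-sum test. In limma 6 of 33 had an unadjusted p below 0.05, against 24.7% of all genes.

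The further sensors, transcription factors and proteases had 0 higher and 3 lower of 27 measured (11.1%). ATF6B, the relative of ATF6, was lower, with a difference of -0.28 ± 0.066 (SE, adjusted p = 0.0176). CREB3L1, an ER-anchored factor linked to collagen secretion, was lower, with a difference of -0.29 ± 0.066 (SE, adjusted p = 0.0159), with every finishing steer below every growing steer. NFE2L2, the oxidative stress factor NRF2 that PERK can phosphorylate, was lower, with a difference of -0.34 ± 0.090 (SE, adjusted p = 0.0327) and its call was lost without finishing steer 2 or 4 or growing steer 2, 6 or 8, with adjusted p up to 0.0666. The further ATF4 and amino acid response targets had 2 higher and 0 lower of 27 measured (7.41%). These were GPT2, a mitochondrial alanine aminotransferase, which rose by 0.58 ± 0.13 (SE, adjusted p = 0.0154), and CBS, which makes cystathionine, which rose by 0.54 ± 0.13 (SE, adjusted p = 0.0191). The CBS call was lost without both finishing steers 5 and 6 (adjusted p = 0.0729).

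Secreted hepatocyte proteins, the cargo of this machinery, had 1 higher and 3 lower of 34 measured (11.8%, against 8.36% of all genes). Their median difference was -0.026, and 7 passed in the rank-sum test, a count with no share of all genes beside it. AHSG, fetuin-A, was lower, with a difference of -0.46 ± 0.062 (SE, adjusted p = 0.000996), and so were ITIH3 and KNG1, with differences of -0.58 ± 0.14 (SE, adjusted p = 0.0233) and -0.15 ± 0.042 (SE, adjusted p = 0.0434). ITIH4 rose by 0.41 ± 0.078 (SE, adjusted p = 0.00639). ITIH3 and ITIH4 are heavy chains of the inter-alpha-trypsin inhibitor family, and KNG1 is kininogen. The KNG1 call was lost in 13 of the 16 fits, all but those without finishing steer 3 or 4 or growing steer 3, with adjusted p up to 0.078. The cargo list shares 8 genes with the hepatocyte markers.

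**Figure D5:**
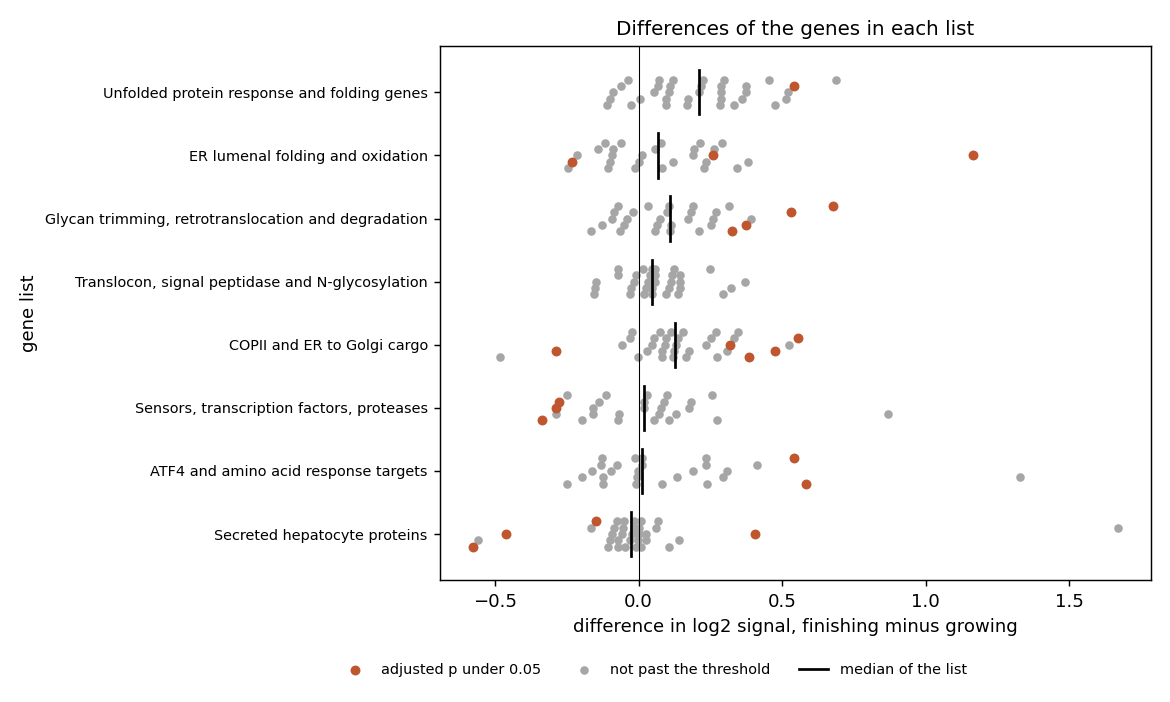
Difference in log2 signal, finishing minus growing, of every measured gene in the unfolded protein response set and in 7 lists of related genes, with the median of each list marked. Orange points had an adjusted p below 0.05 in limma. The 6 lists other than the set of 35 and the secreted proteins hold 12 such genes right of 0 and 5 left of 0.

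Markers of other liver cells differed between the groups too. Over all genes 5.66% were called lower and 2.7% higher in finishing. Plasma cells are rich in chaperones, and 2 of 15 measured B and plasma cell markers were lower in finishing and 0 higher (13.3%). Their mean level was 5.30 to 5.61 in finishing steers and 5.53 to 5.77 in growing steers, and their summed linear signal 820 to 1137 in finishing and 999 to 1401 in growing steers. CD79A, part of the B cell receptor, was lower, with a difference of -0.61 ± 0.087 (SE, adjusted p = 0.00135), and so was SDC1, which hepatocytes also make, with -0.34 ± 0.090 (SE, adjusted p = 0.03). SDC1 lost the call without finishing steer 5, 6 or 7 or growing steer 1, 6, 7 or 8, with adjusted p up to 0.063. Of the defining plasma cell genes, JCHAIN differed by -0.36 ± 0.20 (SE, adjusted p = 0.314). MZB1 and TNFRSF17 were chosen after their values were seen: MZB1 differed by -0.11 ± 0.14 (SE, adjusted p = 0.71), and TNFRSF17 lay between 2.36 and 2.76 in finishing and between 2.23 and 2.78 in growing steers, near the lower end of the scale. CD22 of B cells, the third of the brightest, differed by -0.29 ± 0.14 (SE, adjusted p = 0.25). Finishing steer 5, which was highest in most of the 35 genes, was the highest of its group in 4 of the 15 B and plasma cell markers and the lowest in 4, with a median deviation of -0.079. Growing steer 3 was highest in 0 of 15 and lowest in 2, and growing steer 4 was highest in 6 of 15.

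Macrophage markers were lower in finishing for 8 of 16 (50%) and stellate cell and fibroblast markers for 9 of 14 (64.3%). T and natural killer cell markers were lower for 6 of 20 (30%) and endothelial markers for 2 of 15 (13.3%). Of these markers 0 were called higher, and over all genes 5.66% were called lower and 2.7% higher. In the rank-sum test the counts were 1 of 16 macrophage, 7 of 14 stellate cell, 4 of 20 T and natural killer cell and 0 of 15 endothelial markers. No share of all genes stands beside these rank-sum counts. The stellate cell markers had a summed linear signal of 2569 to 3202 in finishing and 3757 to 4454 in growing steers. On the log2 scale the mean level of macrophage markers was 8.09 to 9.19 in finishing and 8.86 to 9.54 in growing steers, that of T and natural killer cell markers 5.17 to 5.59 in finishing and 5.45 to 6.05 in growing steers, and that of endothelial markers 8.17 to 8.47 in finishing and 8.35 to 8.55 in growing steers. Of the stellate cell markers, DCN, LUM and COL3A1, genes of the collagen matrix and the brightest of the list, differed by -0.41 ± 0.064 (SE, adjusted p = 0.00205), -0.97 ± 0.097 (SE, adjusted p = 0.000189) and -0.73 ± 0.095 (SE, adjusted p = 0.000996). LRAT, which stores retinol as esters, and COL1A1, a collagen, had differences of -1.08 ± 0.14 (SE, adjusted p = 0.000996) and -0.86 ± 0.13 (SE, adjusted p = 0.00174).

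Of the T and natural killer cell markers, CD3D, CD3E, CD2 and CD4, surface proteins of T cells, had the smallest p, with differences of -0.96 ± 0.17 (SE, adjusted p = 0.00462), -0.74 ± 0.13 (SE, adjusted p = 0.00473), -0.87 ± 0.21 (SE, adjusted p = 0.0201) and -0.56 ± 0.14 (SE, adjusted p = 0.0222). The other bright genes of that list, IL7R and NKG7, had -0.13 ± 0.21 (SE, adjusted p = 0.783) and -0.41 ± 0.13 (SE, adjusted p = 0.0765). Among macrophage markers CSF1R, the receptor for a macrophage growth factor, differed by -0.72 ± 0.14 (SE, adjusted p = 0.00763), TIMD4, a receptor for dying cells, by -0.71 ± 0.17 (SE, adjusted p = 0.0174), TYROBP, a signalling adaptor, by -0.58 ± 0.14 (SE, adjusted p = 0.0222) and AIF1 by -0.59 ± 0.16 (SE, adjusted p = 0.0372). The AIF1 call was lost without finishing steer 1, 2, 6, 7 or 8 or growing steer 2, 4, 6 or 8, with adjusted p up to 0.0736. The brightest of that list, the complement genes C1QB and C1QC and the secreted CD5L, differed by -0.38 ± 0.12 (SE, adjusted p = 0.0657), -0.47 ± 0.15 (SE, adjusted p = 0.0742) and -0.098 ± 0.11 (SE, adjusted p = 0.669). The difference was below 0 for 14 of the 16 macrophage markers. CD163 and MARCO, chosen after their values were seen, had the higher mean in finishing steers. CD163 ran from 8.78 to 10.88 in finishing and from 8.88 to 9.98 in growing steers. MARCO ran from 5.83 to 8.32 in finishing and from 6.14 to 7.99 in growing steers. The endothelial adhesion proteins PECAM1 and CDH5 differed by -0.34 ± 0.085 (SE, adjusted p = 0.0226) and -0.38 ± 0.096 (SE, adjusted p = 0.0238), and the brightest endothelial markers, LYVE1, ENG and OIT3, by 0.061 ± 0.097 (SE, adjusted p = 0.77), -0.22 ± 0.078 (SE, adjusted p = 0.11) and -0.19 ± 0.098 (SE, adjusted p = 0.284).

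In limma 0 of 8 cholangiocyte markers passed, against 8.36% of all genes, and 0 passed in the rank-sum test. In limma 2 of 8 had an unadjusted p below 0.05, against 24.7% of all genes. Among steers, finishing steer 4, lowest for the 35 genes, was highest of its group in 11 of 16 macrophage markers, and growing steer 4 was highest in 12 of 16. T and natural killer cell markers were above the group mean in 15 of 20 cases in finishing steer 5 and in 18 of 20 in growing steer 4, with median deviations of 0.21 and 0.31, and in 3 of 20 in finishing steer 4 and 7 of 20 in growing steer 3. The median deviation of the hepatocyte markers stayed between -0.077 and 0.073 in every steer, and their mean level was lowest of the group in finishing steer 5, at 11.989, and in growing steer 4, at 12.003. Finishing steer 5 was the lowest of its group in 6 of 13 hepatocyte markers and growing steer 4 in 5 of 13, while growing steer 3 was the lowest in 0. The part of these other cells in the differences of the 35 genes was not tested.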

How the data were processed

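Liver RNA of 16 steers was hybridised with 1 array per animal. The log2 values per probe set were used as the authors deposited them, and the scale was read from their range of 1.48 to 14.1. GCOS 1.2 and Partek 6.4 are named per the submitters' processing notes, and the methods that summarised probes and normalised arrays are not given in the sources used here. Labelling was by the Affymetrix biotin protocol, per the labels' protocols. Of 26773 probe sets, 18457 carried 1 gene symbol, 688 several and 7628 none in the platform annotation, on which every gene name rests. No detection calls or batch labels were used, and the number of arrays limits the precision.

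The groups were compared by the moderated linear model of limma 3.58.1, run in R 4.3.3, and p-values were adjusted across every probe set by the Benjamini-Hochberg method; the fit was tested on simulated data. Spread is the SD between steers. The alternatives were other normalisations, variance models, filters, thresholds, an exact rank-sum test, a replicate block and fits that left out steers. Rank-sum counts stand without the share of all genes that passed that test, and the limma shares are no background for them. Of each related list, up to 4 genes past the threshold were to be named in order of p, and the 3 brightest of a cell type list that moved. The genes and lists were chosen with earlier results of these data known. Same-numbered steers did not deviate together, with correlations from -0.153 to 0.0406, so the numbers were not taken as pairs. No promoter or protein sequences were used here.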

Additional observations from a re-analysis of the deposited data

Results flagged for a closer look

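Each of the 35 genes was examined in each group of 8 steers for a highest or lowest animal whose gap to its nearest neighbour took up an unusual share of the range (Dixon's test at the 95% level). Of 70 groups examined, 4 held such a steer, and chance alone gives about 5% of groups.

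Growing steer 3 stood apart in 3 of the 4. It had 10.29 for DNAJB9, with the other growing steers between 9.127 and 9.547, 10.89 for SYVN1, with the others between 9.829 and 10.19, and 10.87 for DERL1, with the others between 10.47 and 10.65. The fourth case was P4HB in finishing steer 3, at 12.20, with the other finishing steers between 11.78 and 11.92.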

How the results depend on the processing

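The set had 1 gene past the threshold with all steers, and this count moved with most settings. It was 2 under quantile normalisation (EIF2AK3, HERPUD1), 3 with a variance trend and robust fit (P4HB, ATF4, HERPUD1), 3 with array weights and 3 with annotated probe sets only (EIF2AK3, ATF4, HERPUD1 in both), and 4 when dim probe sets were left out (P4HB, EIF2AK3, ATF4, HERPUD1). It was 0 when arrays were centred on 41 ribosomal protein genes, 0 at a threshold of 0.01 and 0 without finishing steers 5 and 6. When 1 steer was left out it ran from 0 to 5, with 0 in 11 of 16 fits and 5 without growing steer 3 (DNAJB9, MANF, EIF2AK3, ATF4, HERPUD1). HERPUD1 passed in 4 of 16 such fits and in 7 of 12 other settings. In the rank-sum test the only gene past the threshold was P4HB. The counts above 1 stand without the share of all genes called in the same fit. A rise of the set therefore cannot be told apart from a general rise. Leaving out dim or unannotated probe sets also changed the number of probe sets tested.

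The median difference of the set stayed above 0 in all these fits, between 0.107 and 0.235 when 1 steer was left out, 0.122 without finishing steers 5 and 6 and 0.158 after ribosomal centring. The 1777 probe sets past the threshold became 431 at 0.01 and 942 without finishing steers 5 and 6. The 17 called genes of the 6 related lists became 26 without dim probe sets, 2 at 0.01, 7 without finishing steers 5 and 6, and from 12 to 29 when 1 steer was left out, with 29 without growing steer 3. The counts of 26 and 29 likewise stand without the share of all genes called in the same fit. ERO1B and SEC24A passed in all of these settings. Without finishing steers 5 and 6, ITIH3, CD4, TIMD4, TYROBP and CDH5 were among the genes that lost their calls in limma. The adjusted p of these 5 lay between 0.0522 and 0.0774 in that fit. Other genes that lost the call had a higher adjusted p there. Among them were PPIC at 0.119, KNG1 at 0.117, UBE2J2 at 0.126 and the macrophage marker CD14 at 0.175.

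Differences near 0 changed sign. DNAJC3 was -0.0497 after ribosomal centring, -0.069 without finishing steers 5 and 6, and -0.0716 to 0.055 when 1 steer was left out. PDIA4 ran from -0.14 to 0.0507 and SEL1L from -0.129 to 0.0306 when 1 steer was left out. The cause of these changes was not tested.

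With the replicate number as a block, 910 probe sets, 0 genes of the set and 6 genes of the related lists passed; the animals share only a number, so this is no paired design. The mean of a gene's probe sets gave the same values for the set, since each gene had 1 probe set. Dim probe sets may read near the lower end of the scale, where a difference can be compressed. The same can hold for the brightest probe sets near its upper end.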

Other observations

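A few genes of the related lists that missed the threshold varied widely between steers. They were chosen after their values were seen. SLC7A5, an amino acid transporter induced by ATF4, ran from 4.82 to 8.84 in finishing steers, with a median of 6.36, and from 4.62 to 5.68 in growing steers, with a median of 5.06 (adjusted p = 0.103 in limma). The 5 highest finishing steers for SLC7A5 were steers 4 to 8, which were also the 5 highest for TRIB3. CREB3L3, a liver transcription factor cut from the ER membrane, lay between 8.82 and 11.03 in finishing steers and between 8.69 and 9.79 in growing steers (adjusted p = 0.0575). Finishing steers 5 and 4 were its highest and lowest, as for the chaperones, while growing steer 3 was at 8.94, below the growing median of 9.41.

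HP, haptoglobin, an acute-phase plasma protein, ran from 11.77 to 12.82 in finishing steers and from 8.02 to 12.46 in growing steers (adjusted p = 0.0963). Growing steers 4, 3 and 8 had 12.46, 12.40 and 11.99 for HP, and these were also the 3 growing steers whose median deviation over the unfolded protein response genes was above 0. Finishing steer 5, the highest for those genes, had 11.86 for HP, below the finishing median of 12.13.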
